A study of Mus musculus with 6 samples.

Results

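The enzymes that make serine and pass its carbon on to folate form a set of 8 genes here, namely Phgdh, Psat1, Psph, Shmt1, Shmt2, Mthfd1, Mthfd2 and Tyms. They were chosen by name, and every probe set whose only platform gene symbol was one of these was taken. This gave 24 of the 45101 probe sets on the array, and all 8 genes had at least 1. The samples were whole spleens of Balb/c mice aged 6 to 8 weeks. Of the samples, 3 came from untreated controls and 3 from mice given perfluorooctane sulfonate (PFOS), a fluorinated surfactant, into the stomach for 3 weeks at a daily dose of 10 mg per kg. No vehicle is named for the controls. Each sample was hybridized to its own Affymetrix Mouse430_2 array, and values are log2 intensities from RMA.

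Serine is made from a glycolytic intermediate by phosphoglycerate dehydrogenase (Phgdh), phosphoserine aminotransferase (Psat1) and phosphoserine phosphatase (Psph). Serine hydroxymethyltransferases, cytosolic (Shmt1) and mitochondrial (Shmt2), move a carbon from serine to tetrahydrofolate and leave glycine. Mthfd1 in the cytosol and Mthfd2 in mitochondria interconvert the folate-bound carbon units that purine synthesis uses. Thymidylate synthase (Tyms) uses such a unit to make the thymine nucleotide of DNA. Dividing cells draw on this pathway, and the spleen of a mouse holds dividing red cell precursors next to mostly resting lymphocytes.

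Array medians lay between 6.16 and 6.18. Over the 13101 genes tested, arrays of the same group correlated at 0.9985 or above and arrays of different groups at 0.970 or below. PFOS was compared with control by limma, with Benjamini-Hochberg adjustment over all genes or all probe sets. A gene or probe set was called at an adjusted p under 0.05. Of the genes tested, 66.6% were called, 40.6% as higher and 26.0% as lower in PFOS, so a call is common on these arrays and the size of a change carries more information than its p. The samples are labelled as biological replicates with no identifier for each mouse, so the p-values measure only the spread between these arrays. Although the mice are labelled female, the Y-linked Eif2s3y read 9.62 to 9.91 on the 6 arrays with its brighter probe set, and the 3 probe sets of Xist read 3.71 to 5.86. The labelled sex thus did not match these genes on any array, in either group. Spleen markers were present: the B cell list averaged 9.90 to 10.39 and the T cell list 8.91 to 9.37 over the arrays. With bulk tissue, fewer cells of a type and less RNA per cell cannot be told apart.

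In the deposited scaling, the folate enzymes Mthfd1, Mthfd2 and Tyms were clearly lower in PFOS and Shmt2 slightly lower, Phgdh was higher, and Psat1 and Psph were higher by little more than the median gene. Shmt1 changed least. Of the 24 probe sets, 6 were called higher, 12 lower and 6 were not called. Over all probe sets, 49.5% were called, 30.2% as higher and 19.3% as lower. The 3 arrays of a group lay apart from those of the other at 20 of the 24 probe sets, 6 of them higher and 14 lower in PFOS, as they did at 58.3% of all probe sets. Of the 24, the 6 called higher were a share not above the 30.2% over the array, and the 12 called lower a share above its 19.3%. Probe sets of the same gene are not independent of each other. Of the 7 members that passed the filter on low values, 3 were called higher (Phgdh, Psat1 and Psph), 3 lower (Shmt2, Mthfd1 and Mthfd2) and 1, Shmt1, was not called. The arrays of the groups lay apart in all of these but Shmt1, as they did in 71.1% of all genes tested, and none fell by 2-fold or more, as 2.92% of all genes tested did. Tyms did not pass that filter and is described by its probe sets. When the bacterial transcripts added before labelling set the scale, 0.53 was added to every change, so Phgdh, Psat1 and Psph could not turn. Shmt1 was then called higher (0.62). Of the tested members that had fallen, Mthfd1 stayed lower (-0.22). Shmt2 turned to 0.33, and Mthfd2 was no longer called (0.01).

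**Figure D1:**
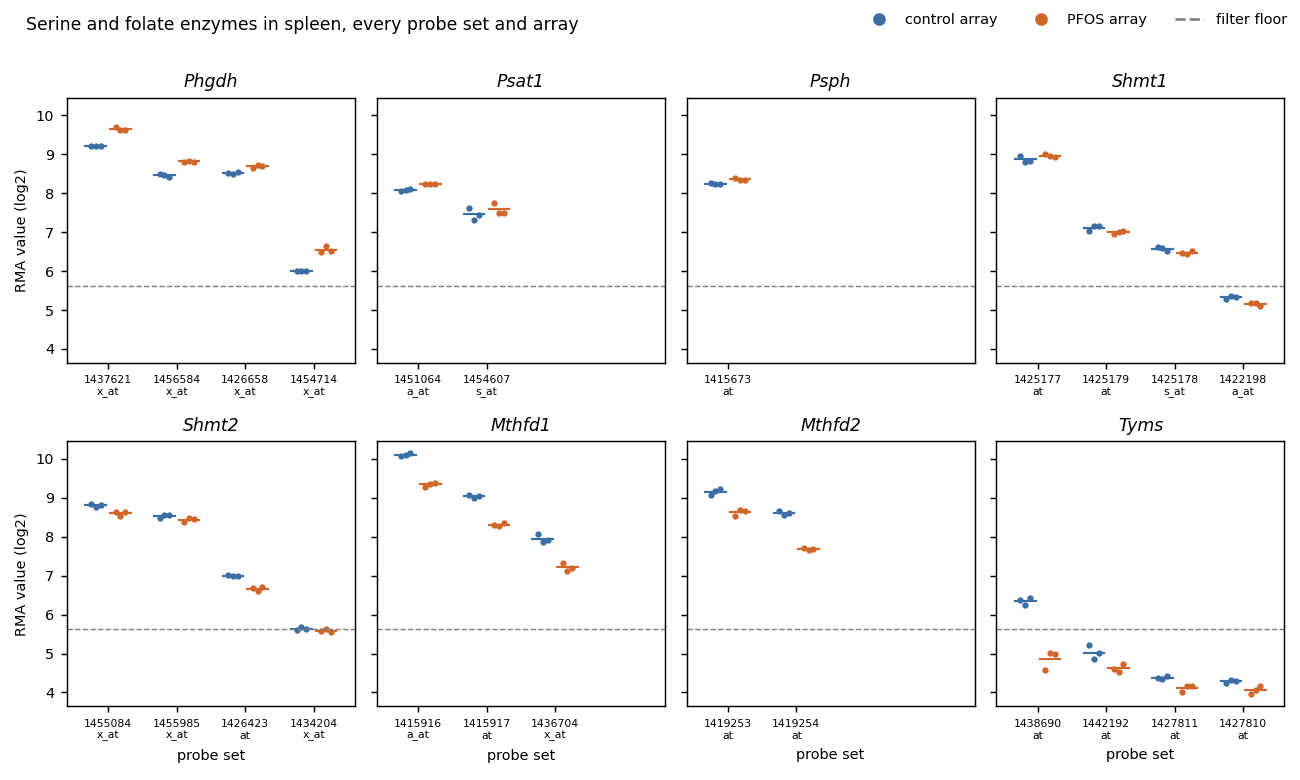
RMA log2 values of all 24 probe sets of the 8 genes, with the 3 control arrays in blue and the 3 PFOS arrays in orange, horizontal bars at group means and the filter floor of 5.62 as a dashed line. Every Phgdh probe set is higher in PFOS and every Mthfd1, Mthfd2 and Tyms probe set is lower in the deposited scaling. Scaled on the labelling spikes, 1 probe set of Mthfd2 (0.01, not called) and 3 of Tyms change sign.

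Phgdh, the enzyme that commits glycolytic carbon to serine, rose in PFOS. Its brightest probe set read 9.20, 9.22 and 9.22 in the controls and 9.69, 9.62 and 9.63 in the PFOS spleens. All 3 PFOS arrays lay above all controls. The change was 0.43 ± 0.03 on the log2 scale (SE, n = 3 per group; 1.35-fold, limma adjusted p = 9.17e-06). That was larger than the change of 96.1% of the genes tested. The other 3 probe sets rose by 0.55, 0.36 and 0.18 (limma adjusted p over all probe sets from 4.73e-05 to 0.0036), again without overlap between the groups. All 4 Phgdh probe sets are of the _x_at type, in which some probes can match other transcripts. A further pair of probe sets lists Phgdh together with a predicted gene (Gm6756 or Gm8096) and cannot be assigned to either; these changed by 0.56 and 0.25 and are in no count here.

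Psat1 and Psph, which carry out the next steps to serine, were higher by a much smaller amount. Psat1 read 8.05, 8.09 and 8.11 in control and 8.23, 8.24 and 8.24 in PFOS, a change of 0.15 ± 0.03 (SE; limma adjusted p = 0.00126). The groups did not overlap at this probe set. The other Psat1 probe set read 7.620, 7.319 and 7.451 in control against 7.758, 7.499 and 7.495 in PFOS. There the groups overlapped and the change of 0.12 ± 0.09 was not called (limma adjusted p = 0.320). Psph, with its single probe set, read 8.25, 8.24 and 8.23 in control and 8.40, 8.34 and 8.33 in PFOS. The change was 0.11 ± 0.03 (limma adjusted p = 0.00901) without overlap, or 0.06 above the median change of all genes tested, which was 0.05. Psph was not called when ribosomal protein genes set the scale (0.04, limma adjusted p = 0.195). In the fit over all probe sets, its call (limma adjusted p = 0.0268) was lost without control replicate 2 (0.0664), control replicate 3 (0.0771) or PFOS replicate 1 (0.0652). Both changes are within the middle of the distribution: 69.1% of tested genes changed by less than Psat1, or went down, and 62.6% did so for Psph.

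Shmt1, the cytosolic hydroxymethyltransferase, gave no single direction in the deposited scaling. Its brightest probe set read 8.96, 8.81 and 8.84 in control and 9.02, 8.94 and 8.92 in PFOS, a change of 0.09 ± 0.05 that was not called (limma adjusted p = 0.125). The groups overlapped through control replicate 1. Without that array the change was 0.14 and was called (limma adjusted p = 0.0173), as it was with quantile normalization (0.12, limma adjusted p = 0.0280). The other 3 probe sets pointed down, by 0.12, 0.10 and 0.17 in size, and of these the dimmest, at a mean of 5.24 and so under the filter floor of 5.62, was called (limma adjusted p = 0.00789). Averaged over its probe sets, Shmt1 was called lower (-0.07, limma adjusted p = 0.0148), so its direction depends on which probe set is read. When the labelling spikes set the scale, which raises every change, all 4 probe sets were called higher (0.62, 0.42, 0.43 and 0.37).

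Shmt2, the mitochondrial enzyme of the same reaction, fell slightly in the deposited scaling and turned when the labelling spikes set the scale (0.33). Its brightest probe set read 8.84, 8.77 and 8.81 in control and 8.63, 8.54 and 8.64 in PFOS, with every PFOS array below every control. The change was -0.21 ± 0.04 (SE; 1.15-fold, limma adjusted p = 0.00141). The only one of its 4 probe sets not of the _x_at type read 7.02, 6.98 and 6.99 in control and 6.67, 6.61 and 6.70 in PFOS, also without overlap, and fell by 0.33 (limma adjusted p = 2e-04). The remaining pair differed by -0.10 and -0.05 and was not called (limma adjusted p = 0.0842 and 0.322), the second of them at a level of 5.61 next to the filter floor.

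The folate dehydrogenases fell further. Mthfd1, the cytosolic enzyme that joins dehydrogenase, cyclohydrolase and formyltetrahydrofolate synthetase activities in 1 protein, had the most uniform response of the set. It read 10.07, 10.09 and 10.14 in control and 9.28, 9.36 and 9.39 in PFOS, a change of -0.76 ± 0.03 (1.69-fold, limma adjusted p = 1.61e-06). The other 2 probe sets gave -0.73 and -0.74, so all 3 agree within their standard errors, and none overlapped between groups. Only 4.29% of the genes tested had a change at or below that of Mthfd1. It remained lower with every scaling of the arrays that was tried, at -0.22 when the labelling spikes set the scale (limma adjusted p = 0.000130).

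Mthfd2, the mitochondrial dehydrogenase, fell by amounts that differed between its probe sets. The brighter read 9.07, 9.17 and 9.22 in control and 8.53, 8.69 and 8.65 in PFOS, a change of -0.53 ± 0.05 (1.44-fold, limma adjusted p = 8.65e-05). When the labelling spikes set the scale, its change was 0.01 and was not called (limma adjusted p = 0.863). The other read 8.65, 8.57 and 8.62 in control and 7.71, 7.65 and 7.70 in PFOS, a change of -0.93 ± 0.04 (1.90-fold, limma adjusted p over all probe sets = 1.14e-06), and stayed lower with that scaling at -0.39. Neither overlapped between groups.

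Tyms, which makes the thymine nucleotide, was lower at all 4 of its probe sets in the deposited scaling. The mean of its brightest unambiguous probe set over the 6 arrays, 5.60, lay just under the filter floor of 5.62, and its other 3 probe sets lay at 4.18 to 4.83, so the gene was tested only in the fit over all probe sets. The brightest read 6.38, 6.24 and 6.43 in control and 4.57, 5.02 and 4.99 in PFOS, with all PFOS arrays far below all controls. The fitted change was -1.49 ± 0.12 (SE; limma adjusted p = 4.5e-05), and since the PFOS values lie under the floor no fold is given. It stayed lower when the labelling spikes set the scale (-0.96). The 3 dimmer probe sets changed by -0.40, -0.27 and -0.22 and all were called (limma adjusted p from 0.00404 to 0.0144). With that scaling their signs turned, and the first was no longer called (0.13, limma adjusted p = 0.146). At such levels the background of the array limits the size of a change that can be read. A brighter probe set carries the symbols of Tyms and of its pseudogene Tyms-ps together. It read 8.85, 8.83 and 8.87 in control and 7.40, 7.42 and 7.38 in PFOS, a change of -1.45 ± 0.03, which cannot be assigned to either and is in no count here.

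**Figure D2:**
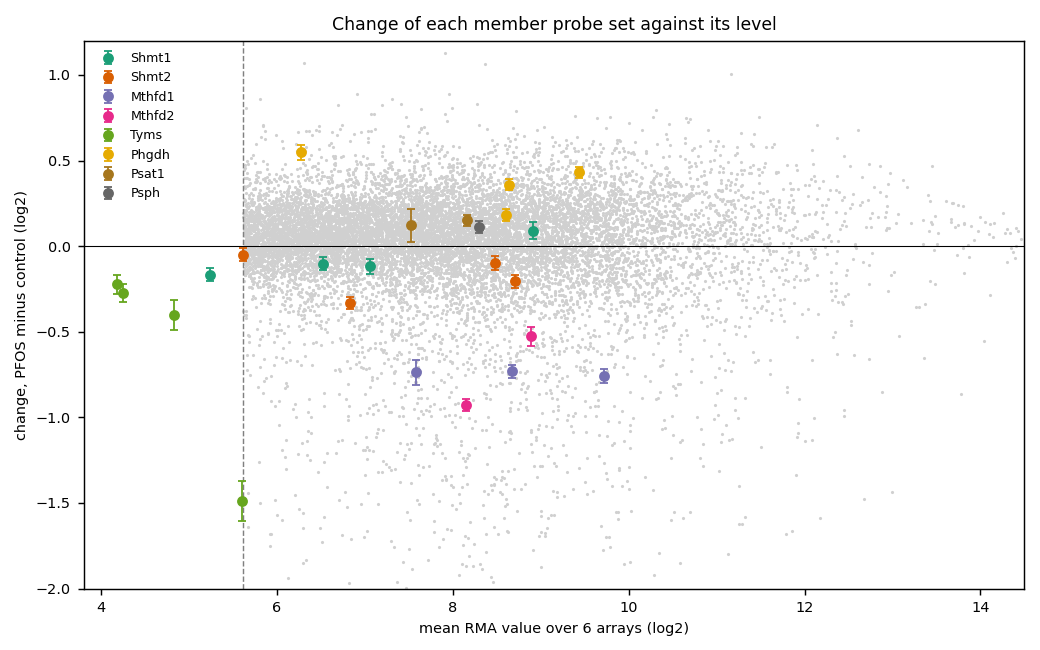
Log2 change (PFOS minus control, with its SE) of each of the 24 member probe sets against its mean log2 value over 6 arrays; grey points are the tested genes, cut to changes from -2 to 1.2, and the dashed line is the filter floor. The probe sets of Mthfd1 lie together near -0.74, those of Mthfd2 apart at -0.53 and -0.93, and the Tyms probe sets lie left of the floor.

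Whether paired enzymes changed unequally was tested on the difference of their log2 values within each array, which removes the offset between probe sets and any scaling of the array. In all, 4 pairs were compared. The exact two-sided permutation test of 3 arrays against 3 cannot give less than p = 0.1, so no pair could pass. Phgdh changed by 0.28 ± 0.03 more than Psat1, the arrays of the groups lying apart (exact p = 0.1, adjusted p = 0.133 over 4 pairs). Shmt1 exceeded Shmt2 by 0.30 ± 0.05, and Mthfd1 lay 0.23 below Mthfd2 (difference -0.23 ± 0.04), each also with groups apart and the smallest possible p. Both of these depend on the probe sets. Averaged over all probe sets of each gene, Shmt1 exceeded Shmt2 by only 0.10, and Mthfd1 and Mthfd2 differed by only -0.01. The dimmer probe set of Mthfd2 fell further than Mthfd1. On the same average Phgdh exceeded Psat1 by 0.24, but 1 Phgdh probe set rose by only 0.18, against 0.15 and 0.12 for Psat1. Psat1 and Psph differed by 0.04 ± 0.04 with overlapping arrays (exact p = 0.3).

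Since the members divide into those that rose and those that fell, the bases just upstream of their start sites are shown for Mthfd1, Mthfd2 and Tyms, which fell most, and Phgdh, which rose most. These are the 250 bases before the RefSeq start on assembly GRCm38.p6, read 5′ to 3′ on the strand of the gene: chr12:76254982-76255231 (plus strand) for Mthfd1, chr6:83317605-83317854 (minus) for Mthfd2, chr5:30073626-30073875 (minus) for Tyms and chr3:98339970-98340219 (minus) for Phgdh. Capitals mark a CCAAT box (CCAAT), a GC box (GGGCGG) or the E-box of MYC (CACGTG), on either strand.
Mthfd1: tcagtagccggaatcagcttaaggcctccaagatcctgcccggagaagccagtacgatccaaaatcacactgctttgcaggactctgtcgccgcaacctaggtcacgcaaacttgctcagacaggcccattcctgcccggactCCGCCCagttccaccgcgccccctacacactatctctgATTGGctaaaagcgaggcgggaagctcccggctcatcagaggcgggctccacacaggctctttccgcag
Mthfd2: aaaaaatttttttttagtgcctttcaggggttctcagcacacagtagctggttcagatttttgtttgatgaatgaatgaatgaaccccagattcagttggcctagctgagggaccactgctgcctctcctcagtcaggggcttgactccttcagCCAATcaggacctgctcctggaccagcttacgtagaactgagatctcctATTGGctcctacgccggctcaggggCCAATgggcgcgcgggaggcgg
Tyms: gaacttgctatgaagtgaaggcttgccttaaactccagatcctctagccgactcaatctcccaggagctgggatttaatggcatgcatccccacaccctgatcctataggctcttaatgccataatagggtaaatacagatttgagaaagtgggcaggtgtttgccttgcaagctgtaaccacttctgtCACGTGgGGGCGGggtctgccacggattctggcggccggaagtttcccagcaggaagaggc
Phgdh: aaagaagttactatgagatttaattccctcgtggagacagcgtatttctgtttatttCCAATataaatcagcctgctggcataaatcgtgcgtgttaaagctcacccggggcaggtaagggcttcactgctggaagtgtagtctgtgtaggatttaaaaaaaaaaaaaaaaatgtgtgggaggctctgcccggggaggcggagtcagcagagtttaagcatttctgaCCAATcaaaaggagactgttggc

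All 8 members had such a window. CCAAT was found on either strand in 6 of them (Shmt1, Mthfd1, Mthfd2, Phgdh, Psat1 and Psph), against 33.8% of the 32851 windows of this length, and so in members that rose and in members that fell. GGGCGG was found in Shmt1, Mthfd1, Tyms and Psph, against 32.7% of windows, and CACGTG only in Tyms among the members, against 6.02%. In Tyms the E-box and the GC box are separated by a single base. The E2F letters TTTCCCGC and TTTGGCGC, the ATF4 element TGATGNAA and the GATA letters AGATAA were searched on both strands and found in none of the 8 windows, where 0.895%, 0.417%, 3.45% and 9.99% of all windows hold them. A match describes letters in this window and shows no binding.

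The wider pathway was read from 5 lists of other genes. Of 88 genes listed, 70 were tested. Of these, 8 were higher, 37 lower and 25 not called in the deposited scaling, beside 40.6% higher and 26.0% lower among all genes. Scaled on the labelling spikes, 53 were higher and 10 lower, beside 12065 higher and 723 lower of all 13101 genes tested. The counts given below with that scaling are to be read beside these. The list of other folate enzymes and transport had 14 genes tested, of which 6 were lower, 2 higher and 6 not called, with a median change of -0.06. With the spikes as the scale, 0 of these were called lower by limma and 11 higher. Mthfd1l, the mitochondrial formyltetrahydrofolate synthetase, fell from 9.59 ± 0.02 to 8.99 ± 0.01 (SD, n = 3; log2 change -0.60 ± 0.02 SE, limma adjusted p = 9.26e-07), a call lost with scaling on the spikes (-0.06). The purine enzyme Gart changed by -0.34, and 0.19 with the spikes; of its other 3 probe sets 1 was called and also lower. Aldh1l1, a folate dehydrogenase prominent in liver, went from 5.93 to 5.41, which is under the filter floor. Ggh, the lysosomal hydrolase that trims folate polyglutamates, rose by 0.31 ± 0.03 (limma adjusted p = 0.000155).

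Of 17 tested genes of serine and glycine transport and use, 6 were lower, 4 higher and 7 not called (median -0.06). The spikes as the scale gave 1 lower and 16 higher, and ribosomal protein genes as the scale gave 12 lower and 4 higher. The glycine transporter Slc6a9 read 9.23, 9.23 and 9.17 in control and 8.01, 8.09 and 8.15 in PFOS, a change of -1.12 ± 0.04 (2.18-fold, limma adjusted p = 3.37e-07); its other probe set fell by only 0.15. The neutral amino acid transporter Slc1a5 changed by -0.40, or 0.13 with scaling on the spikes. Sptlc1 and Sptlc2, subunits of the enzyme that joins serine to a fatty acid to begin sphingolipid synthesis, rose by 0.30 and 0.27 (limma adjusted p = 0.000111 and 5.29e-05).

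In the methionine cycle and transsulfuration list, 15 genes were tested, and 7 were lower, 2 higher and 6 not called (median -0.11), against 2 lower and 13 higher with the spikes as the scale. Bhmt, which remethylates homocysteine in liver and kidney, went from 8.93 to 5.27, the latter under the floor, and Gnmt, a glycine methyltransferase of liver, from 7.57 to 6.46. Ahcy, which clears S-adenosylhomocysteine, changed by -0.32, and Srm, the spermidine synthase, by -0.23; both turned with scaling on the spikes (0.21 and 0.31). The list of deoxynucleotide enzymes, whose products meet that of Tyms in DNA synthesis, was lower in all 7 tested genes in the deposited scaling (median -1.10), and with the spikes as the scale in 5, with 1 higher. Rrm2 and Rrm1, the subunits of ribonucleotide reductase, changed by -1.68 and -1.14. Tk1, the thymidine kinase that salvages thymidine, changed by -1.44, and Dut, which yields the substrate of Tyms, by -1.10. These 4 also stayed lower and called with scaling on the spikes.

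ATF4 is a transcription factor known to drive Phgdh, Psat1, Psph, Shmt2 and Mthfd2 when amino acids are short, and MYC is also known to act on several of these genes. Of 17 tested genes in the list of these factors and other targets, 11 were lower, 0 higher and 6 not called by limma in the deposited scaling (median -0.15). With the spikes as the scale, 2 were lower and 12 higher. Several other settings, quantile normalization among them, called 1 gene of the list higher. Asns, the asparagine synthetase, read 9.20, 9.08 and 9.23 in control and 7.21, 7.35 and 7.34 in PFOS (change -1.87 ± 0.05, 3.66-fold, limma adjusted p = 1.09e-07). The amino acid transporter subunits Slc7a5 and Slc3a2 changed by -1.09 and -0.55, and the alanyl-tRNA synthetase Aars by -0.60. Atf4 itself went from 10.93 ± 0.04 to 10.41 ± 0.02 (SD, n = 3; change -0.52, limma adjusted p = 4.09e-06). Both further probe sets of Atf4 were called lower as well. With scaling on the spikes the change of Atf4 was 0.02 and those of Slc3a2 (-0.02) and Aars (-0.06) were no longer called, while Asns and Slc7a5 stayed lower and called. Myc changed by only -0.10 in the deposited scaling (limma adjusted p = 0.0277). That call was lost when any 1 of 4 arrays was left out. The limma adjusted p was 0.0813 and 0.0676 without control replicates 1 and 3, and 0.0913 and 0.0646 without PFOS replicates 2 and 3. It was also lost with quantile normalization (0.104). With scaling on the spikes Myc was called higher (0.44, limma adjusted p = 2.13e-06).

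**Figure D3:**
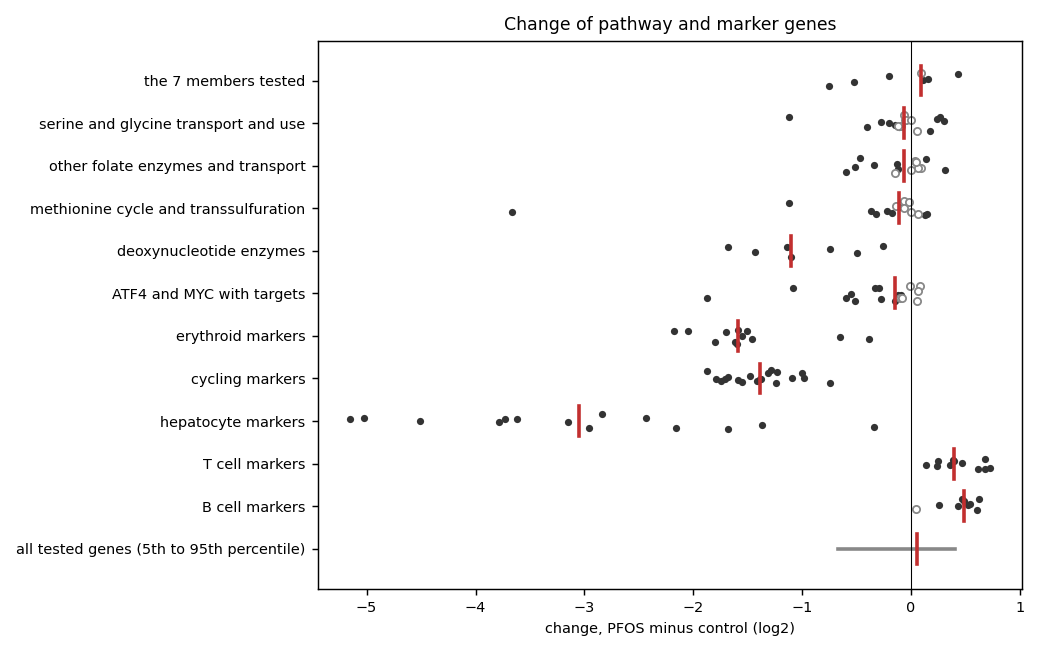
Log2 change (PFOS minus control) in the deposited scaling of each tested gene of the set, of 5 pathway lists and of 5 marker lists; filled points were called, open points were not, and red bars are medians. The grey bar spans the 5th to 95th percentile of all tested genes, -0.67 to 0.40; the deoxynucleotide, cycling and erythroid medians lie left of it, at -1.10, -1.38 and -1.59, while the members straddle 0.

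Marker genes of several cell types moved in the same arrays, with counts and levels given in the deposited scaling. Scaling on the labelling spikes adds 0.53 to every change. That is more than the fall of Alas2 (-0.39), Tat (-0.34), Cpa1 (-0.44), S100a8 (-0.32) and S100a9 (-0.37). The median changes were larger in size, at -1.59 for erythroid, -1.38 for cycling, -3.05 for hepatocyte, -0.56 for pancreas and -0.74 for neutrophil markers. All 12 tested erythroid markers were lower, their mean level going from 11.47 to 11.49 in control to 9.96 to 9.97 in PFOS, and all 19 tested markers of cycling cells were lower, from 10.42 to 10.44 in control to 9.03 to 9.04 in PFOS. All 14 hepatocyte markers were lower (8.39 to 8.41 in control, 5.33 to 5.37 in PFOS), with 9 of them under the floor in PFOS; a marker passed the filter there only through its control level. All 7 tested pancreas markers were lower, with means of 7.30 to 7.32 in control and 6.50 to 6.59 in PFOS. Of 7 neutrophil markers, 6 were lower and 1 higher, from 9.06 to 9.08 in control to 8.47 to 8.50 in PFOS. The fall of Mthfd1, Mthfd2 and Tyms thus occurred in the same samples as that of the erythroid, cycling, hepatocyte, pancreas and most neutrophil markers. The part of any of these cells in it was not tested.

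In the direction of Phgdh, all 11 tested T cell markers were higher (mean level 8.91 to 8.93 in control, 9.36 to 9.37 in PFOS), as were 8 of 9 B cell markers (9.90 to 9.94 in control, 10.35 to 10.39 in PFOS), with 0 lower in either list by limma. The median changes were 0.40 for T cell, 0.48 for B cell, 0.42 for germinal centre, 0.26 for plasma cell and 0.23 for red pulp macrophage markers. Beside these, Phgdh changed by 0.43, Psat1 by 0.15 and Psph by 0.11. Of 6 plasma cell markers 5 were higher (mean level 8.678 to 8.708 in control, 8.973 to 8.996 in PFOS). The 3 tested germinal centre markers were higher (7.34 to 7.47 in control, 7.84 to 7.91 in PFOS), and so were 4 of 6 red pulp macrophage markers (10.07 to 10.10 in control, 10.37 to 10.38 in PFOS). The part of these cells in the rise of the serine enzymes was not tested.

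RMA makes the arrays alike in distribution, so each change is relative to the other transcripts of its array. The bacterial spikes added before labelling read 6.65 ± 0.01 in control and 6.11 ± 0.02 in PFOS (SD, n = 3; difference -0.53, exact two-sided permutation p = 0.1, the smallest possible). Those added before hybridization read 10.00 in both groups (exact p = 0.9). Scaling on the labelling spikes adds 0.53 to every change and moves the median of all tested genes from 0.05 to 0.59. Relative to the median gene, which that scaling leaves unaltered, the changes were 0.38 for Phgdh, 0.10 for Psat1, 0.06 for Psph, 0.04 for Shmt1, -0.26 for Shmt2, -0.58 for Mthfd2 and -0.81 for Mthfd1. The order of the members is therefore the same with either scaling, while the sign of Shmt2 and of the brighter Mthfd2 probe set is not.

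**Figure D4:**
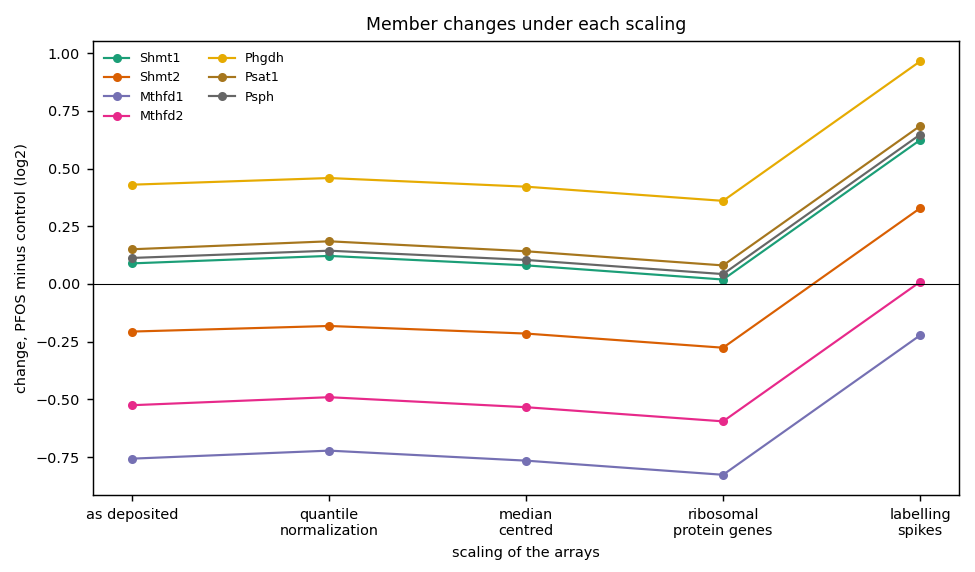
Log2 change (PFOS minus control) of the 7 tested members with the arrays scaled in 5 ways. Median centring and scaling on ribosomal protein genes or labelling spikes shift all genes alike. Only quantile normalization could make lines cross, and it does not: Phgdh stays highest and Mthfd1 lowest. With scaling on the labelling spikes Shmt2 turns from -0.21 to 0.33, and Mthfd2 goes from -0.53 to 0.01, which is not called.

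Other genes followed some members closely over the 6 arrays. Likeness was taken as the root mean square distance between profiles centred on their own means, with all 6 arrays, so that it is governed by the size of the group difference. Mthfd1 lay nearest to Mcm3 (distance 0.0102), a subunit of the replicative helicase, and then to Tnfrsf14 (0.0190), a receptor of the tumour necrosis factor family. Mthfd2 lay nearest to Uhrf1bp1 and Gtse1 (0.0255 and 0.0256), and Phgdh to Slc12a7, a potassium chloride cotransporter, and Csnk1g3, a casein kinase (0.0105 and 0.0117). Shmt2 lay nearest to Nsmce2 and the tRNA synthetase Eprs (0.0155 and 0.0174), and Shmt1 to Papola and Sarnp (0.00866 and 0.0121). Psat1 lay nearest to Sfi1 and Mtarc2 (0.00642 and 0.00649) and Psph to Bnip2 and Rpf1 (0.00675 and 0.00779), all with small changes. For Tyms, Gm20161 and Micall2 were nearest, at 0.0868 and 0.112. Its profile came from a probe set under the filter floor whose PFOS values had an SD of 0.25, a spread that can add to such distances.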

How the data were processed

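Total RNA of 6 spleens was labelled and hybridized to 1 Affymetrix Mouse430_2 array each, per the labels. Per the submitters' processing notes, RMA produced the deposited log2 values; its version is not given in the sources used here. RMA corrects background, equalizes arrays and summarizes the probes of a probe set. Depth has no meaning for arrays, and their number limits the precision.

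From the 45037 non-control probe sets, those with 1 gene symbol and a mean over the 6 arrays at or above the 40th percentile (5.62) were kept. Each gene was read from its brightest probe set, giving 13101 genes. The groups were compared in R 4.3.3 with limma 3.58.1 (lmFit and eBayes), two-sided, with Benjamini-Hochberg adjustment. The gene fit is quoted for the probe set that stands for a gene, and a second fit over all 45037 probe sets, unfiltered, for the others and for Tyms. Errors of changes are limma's SE, except between pairs of genes, where they come from the within-array differences.

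The members, the lists and the settings were chosen with earlier results of these data known. The text names the members, up to 4 called genes with the smallest p in each pathway list, Atf4, Myc, and the 2 nearest profiles of each member. Genes of the lists with no value were not analysed here. Promoter windows are from RefSeq on GRCm38.p6, used for sequence and position only; of the 2 windows of Psat1, the upstream one was used. The fit was tested on simulated data. Alternatives were the replicate block, other filters and scalings, array weights, a trended variance prior, other probe sets per gene and leaving out each array.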

Additional observations from a re-analysis of the deposited data

How the results depend on the processing

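Replicate numbers are shared between the groups. Same-numbered arrays deviated together with correlations of 0.324, 0.138 and 0.097, and control replicate 3 correlated better with PFOS replicate 2 (0.128), so the numbers were not taken as pairs. With the replicate block, Shmt1 was called (0.0892, limma adjusted p = 0.027) and 9050 genes were called in place of 8730. Shmt1 was also called with quantile normalization (0.122) and turned with the mean over probe sets (-0.0743). With ribosomal protein genes as the scale, Psph lost its call (0.0428) and, of all calls, 43.6% were higher in place of 61.0%. With the labelling spikes 94.3% were higher, 5 members were higher and 1 lower, and 53 pathway genes were higher and 10 lower. Shmt1 was then called (0.6235), and Shmt2 (0.328), Slc1a5 (0.1307), Gart (0.1922), Ahcy (0.2117), Srm (0.3089) and Myc (0.4371) turned. Mthfd2 (0.0088), Aldh1l1 (0.0146) and Atf4 (0.0165) went to values that were not called. By probe set, an alternative added after seeing the data, scaling on the labelling spikes gave 17 higher and 5 lower. It changed the sign of Shmt1 (0.4176, 0.4307 and 0.3683), Shmt2 (0.328, 0.438, 0.2013 and 0.4849), Mthfd2 (0.0088) and Tyms (0.1337, 0.2611 and 0.3106). Of these, the Mthfd2 value and 0.1337 for Tyms were not called. With plain _at probe sets alone, 1 member was higher, because Phgdh and Psat1 have no probe set of that kind. Leaving out 1 array gave 0.0602 to 0.1354 for Shmt1, -0.781 to -0.727 for Mthfd1, -0.566 to -0.479 for Mthfd2 and 0.408 to 0.446 for Phgdh, with 3 to 4 members higher and 3 to 4 lower. Leaving out any 1 PFOS array raised the mean of the brightest Tyms probe set over the filter floor, through its control level. That Tyms was then lower is no separate support. With few arrays, changes of about 0.1 were at the limit of what could be called, also for Shmt1 and Psph, whose brightest probe sets lie well above the floor.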
